A study of Mus musculus with 6 samples.

Results

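The interferon response genes described here are 39 mouse genes that act in or are induced by the interferon pathway: 4 receptor chains, 7 signalling factors, 4 genes of viral RNA sensing and 24 effectors. They are a list of gene names, drawn up with earlier results of these arrays known. Of the 39 genes, 37 had a probe set annotated to them alone, and all 37 were among the 10302 genes tested. Ifi44 had no probe set of its own and was read only for its promoter. Isg15 is given separately because its probe set is shared with another gene. Expression was measured in 3 Gata3+/- and 3 Gata3-/- samples, 1 array each. Gata3 encodes a transcription factor of T-cell development, so the design sets cells with 1 disrupted copy against cells that have lost both.

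All 6 samples were described as T-cell progenitors sorted from mouse embryonic stem cells that had been grown on OP9 and OP9-DL1 cells, bone marrow stromal lines of which the latter carries a Notch ligand. Both genotypes received the cytokines IL-7 and Flt3L, and no interferon or virus is named among the treatments. Strain, clone number, sort markers and the disrupted part of Gata3 are not given by the labels. The titles call the samples biological replicates, but whether they came from separate cultures is not stated, so the p-values rest on a spread that may be technical. A level is the log2 of a GC-RMA intensity, and a mean is followed by its SD over the 3 arrays of a genotype. Each difference is the Gata3-/- mean less the Gata3+/- mean, and SE is its standard error. The minimum for a measurable level was a log2 value of 4, under which GC-RMA values form a floor.

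Across the tested probe sets, arrays of the same genotype correlated at 0.974 to 0.990 and arrays of different genotypes at 0.956 to 0.982. The Gata3 probe set read 5.88 ± 0.50 in Gata3+/- and 5.93 ± 0.48 in Gata3-/- samples (exact permutation p = 0.7, two-sided, smallest possible p 0.1), and cannot check the genotypes because the disrupted part is not known. Against the label of T-cell progenitors, 12 of 14 T-lineage markers were under the minimum on every array, among them Cd3e and Bcl11b, whereas all 13 macrophage and monocyte markers reached it. The arrays numbered 2 stood apart in both genotypes. Their summed intensity of 11 stromal markers was the lowest of each genotype, at 4770 against 14295 and 15630 in Gata3+/- samples, and at 3642 against 7443 and 14668 in Gata3-/- samples. Col1a1, Col1a2, Col3a1, Fn1, Sparc, Vcam1 and Acta2 were each lowest there in both genotypes. Cxcl12 was instead highest there in both (9.43 and 9.18), and Postn was lowest there only in Gata3-/- samples. Lum and Dcn were under the minimum on every array. For a part of the genes, results are also given without the arrays numbered 2.

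Interferons are secreted proteins that cells release when they detect viral nucleic acid. Type I interferons bind a receptor of the chains IFNAR1 and IFNAR2, and interferon gamma binds one of IFNGR1 and IFNGR2. The receptors activate Janus kinases, which phosphorylate STAT proteins. STAT2 acts with IRF9 in a complex that binds the interferon-stimulated response element (ISRE) in the promoters of effector genes, while interferon gamma acts through STAT dimers at the gamma-activated site (GAS). Effector proteins block viral entry, translation and replication, and many blood cells keep a low, tonic activity of the pathway without infection.

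The promoters of these genes were searched for both elements. RefSeq promoter windows of assembly GRCm38.p6, from 250 bases before to 50 after a gene's start, were found for 31 of the 39 genes. The ISRE core, which is GAAA, any 2 bases and GAAA again, was searched on both strands and occurred in 13 of the 31 (41.9%), against 3.99% of the 27025 genes with a window of the same length. None of the 4 receptor genes held it, and 2 of 7 signalling factors, 2 of 3 sensors and 9 of 17 effectors did. The GAS motif TTCNNNGAA, which reads the same on both strands, occurred in 10 of the 31 (32.3%), against 9.55% of all genes. Eif2ak2, Ifitm3 and Irf2 held both motifs and 11 of the 31 held neither. The stretches below are those of genes whose values are followed in the text: 4 effectors that varied between arrays of 1 genotype, Gbp2, and the GAS matches of Irf1 and Ifnar2. They run 5′ to 3′ on the gene's strand, with the motif in capitals, and in none of the stretches did the other motif occur.
Ifit1, chr19:34640770-34640828, plus strand, the first of 2 ISRE cores starting 104 bases before the gene: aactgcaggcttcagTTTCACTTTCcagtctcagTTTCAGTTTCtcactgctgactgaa
Ifit3, chr19:34583358-34583431, plus strand, the first of 2 ISRE cores starting 156 bases before the gene: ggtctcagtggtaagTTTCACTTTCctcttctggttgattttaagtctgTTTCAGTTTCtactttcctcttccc
Rsad2, chr12:26456548-26456587, minus strand, ISRE core starting 120 bases before the gene: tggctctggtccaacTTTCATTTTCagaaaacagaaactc
Oas3, chr5:120777710-120777749, minus strand, ISRE core starting 75 bases before the gene: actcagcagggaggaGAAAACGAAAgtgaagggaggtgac
Gbp2, chr3:142620589-142620628, plus strand, ISRE core starting 59 bases before the gene: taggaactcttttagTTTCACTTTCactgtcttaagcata
Irf1, chr11:53769909-53769947, plus strand, GAS starting 90 bases before the gene: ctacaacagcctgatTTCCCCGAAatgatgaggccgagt
Ifnar2, chr16:91372554-91372592, plus strand, GAS starting 214 bases before the gene: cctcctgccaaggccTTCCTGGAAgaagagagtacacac
Such a match describes the letters of the window and was not tested for binding.

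The interferon response genes were expressed in both genotypes, and nearly all of them at levels that did not differ by a detectable amount. All 37 lay above the minimum on every array, between 7.98 and 14.84. Ifnar2 fell in Gata3-/- samples and was the only 1 of 37 called with limma at an adjusted p under 0.05 (2.70%), against 5.27% of all genes tested. Members called higher were 0, against 2.86% of all genes, and members called lower were 1, against 2.41%. At an unadjusted p under 0.05 the count was 9 of 37 (24.3%), against 25.8% of all genes. The median difference of the 37 genes was 0.02, beside -0.02 over all genes, with 20 above 0 and 17 below. No member differed by 2-fold or more, and the 95% interval of 33 of the 37 lay within 2-fold in either direction. The 3 values of each genotype did not overlap for 10 members (27.0%), against 33.6% of all genes. Of these 5 were higher and 5 lower, where the shares of all genes were 16.9% and 16.7%. In these pooled cells, fewer cells of a type and less RNA per cell cannot be told apart.

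**Figure D1:**
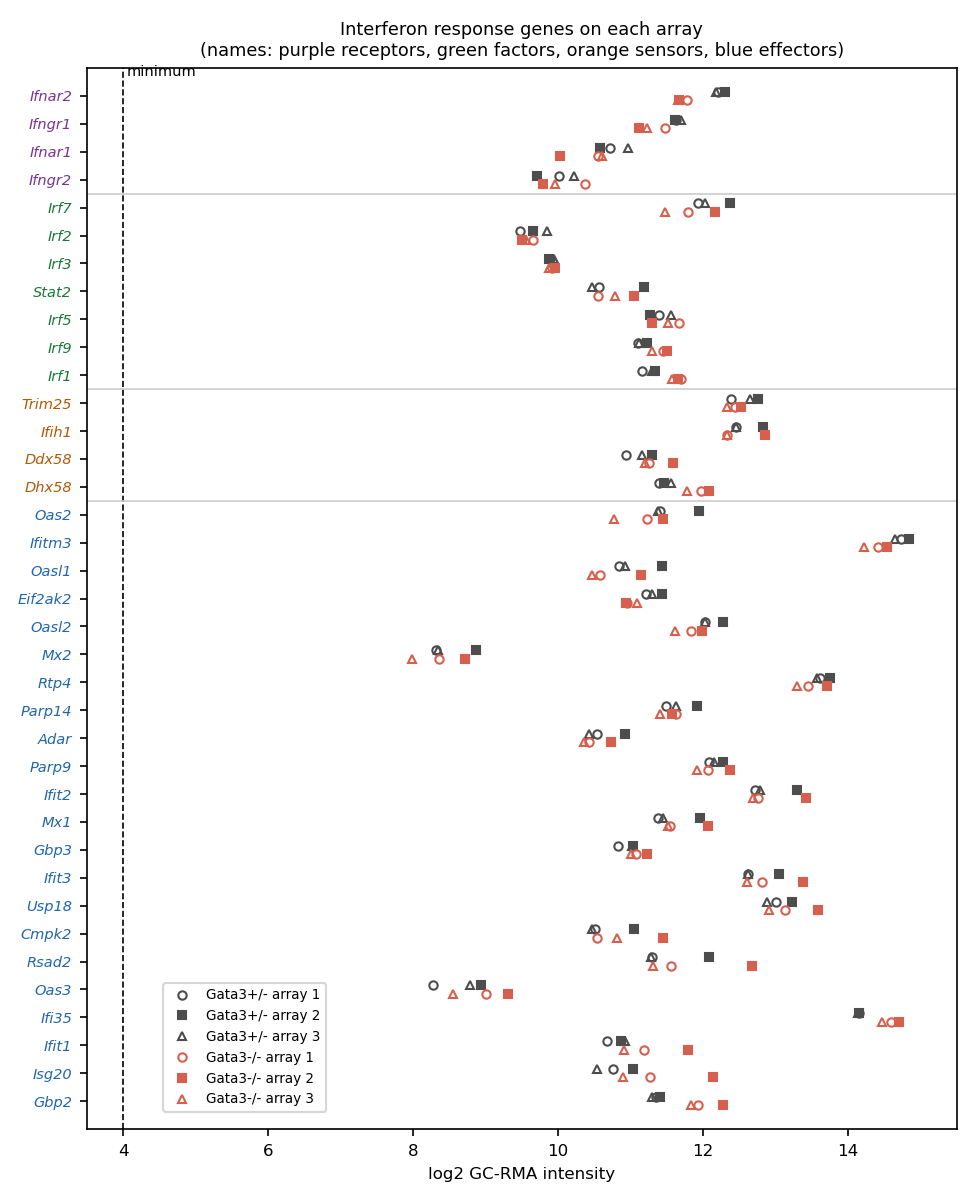
Log2 GC-RMA intensity (x axis) of the 37 measured interferon response genes (rows, by role and then by difference) on each of the 6 arrays, with grey symbols for Gata3+/- and red symbols for Gata3-/- samples, squares for the arrays numbered 2, and a dashed line at the minimum of 4. All values lie between 7.98 and 14.84, and for most effectors the squares are the rightmost symbols of their colour.

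Among the receptors, the type I interferon chain Ifnar2 read 12.21, 12.30 and 12.17 in Gata3+/- samples and 11.78, 11.66 and 11.65 in Gata3-/- samples. Every Gata3-/- value was below every Gata3+/- value. It fell from 12.22 ± 0.06 to 11.70 ± 0.07, a 1.44-fold decrease (difference -0.53, SE 0.08, limma adjusted p = 0.0349). Its other probe sets lay lower too, one by -0.61 (adjusted p = 0.0592) and one by -0.70 (adjusted p = 0.0557), and 4.37% of all probe sets tested were called, though probe sets of 1 gene are not independent measurements. The call was lost when any 1 of the 6 arrays was left out, with limma adjusted p between 0.0761 and 0.113 and differences between -0.57 and -0.49. Those fits called only 0 to 4 of all 10302 genes, so a lost call was not particular to Ifnar2. Without both arrays numbered 2 the difference was -0.47 (adjusted p = 0.157).

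The other receptor chains did not pass. Ifngr1, the ligand-binding chain for interferon gamma, read 11.62, 11.61 and 11.70 in Gata3+/- and 11.47, 11.12 and 11.23 in Gata3-/- samples. These values did not overlap, and the difference was -0.37 (SE 0.11, limma adjusted p = 0.116). Ifnar1, the partner of Ifnar2, read 10.72, 10.58 and 10.97 against 10.55, 10.03 and 10.61, where Gata3-/- array 1 was close to the lowest Gata3+/- value and array 3 above it. Its difference was -0.36 (adjusted p = 0.321), and its dimmer probe set had a difference of 0.02. Ifngr2, the second chain of the interferon gamma receptor, had a difference of 0.06 (95% interval -0.43 to 0.55). Ifnar2, Ifnar1 and Ifngr2 all lie on chromosome 16, and the median difference of its 337 tested genes was -0.06.

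Of the 7 signalling factors 0 passed with limma (2 at an unadjusted p under 0.05). Irf1, an interferon-induced activator whose promoter holds the GAS printed above, read 11.16, 11.33 and 11.29 in Gata3+/- and 11.69, 11.65 and 11.57 in Gata3-/- samples. The genotypes did not overlap, the difference was 0.38 (SE 0.08) and the limma adjusted p was 0.0614. Irf9, the DNA-binding partner of STAT2, read 11.10, 11.22 and 11.12 against 11.44, 11.50 and 11.29, again without overlap (difference 0.26, SE 0.09, adjusted p = 0.147). The mRNA of Stat2 itself stood at 10.74 ± 0.38 and 10.79 ± 0.24, without a detectable difference (0.05, SE 0.23, limma adjusted p = 0.923). With an SE of that size, a difference in either direction was not excluded, and the protein was not measured.

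Irf7, the factor that amplifies type I interferon production and is abundant in plasmacytoid dendritic cells, read 11.93, 12.37 and 12.03 in Gata3+/- and 11.79, 12.16 and 11.48 in Gata3-/- samples. The ranges overlapped and the difference was -0.30 (SE 0.21, adjusted p = 0.454). Of 10 plasmacytoid dendritic cell markers 7 reached the minimum on an array and Ccr9, Ly6d and Cox6a2 did not on any. Of these markers 2 fell, with limma adjusted p of 0.0281 for Siglech, from 8.04 ± 0.85 to 3.54 ± 0.43, and 0.0283 for Pacsin1, and 0 rose. Lair1 had a difference of -0.95, while Spib, at 4.86 ± 1.18 and 7.60 ± 0.39, and Tlr9, Atp1b1 and Klk1, with differences of 0.17, 0.26 and 0.05, lay on the higher side. The summed intensity of the list was 1660 to 2570 in Gata3+/- and 1170 to 1380 in Gata3-/- samples, and the part of these cells in the Irf7 values was not tested. Irf3, which starts interferon transcription after sensing, had a difference of 0.01 (95% interval -0.15 to 0.18), the narrowest interval among the members. Irf5 and Irf2, an activator of inflammatory genes and a repressor of ISRE-driven transcription, had differences of 0.09 (95% interval -0.23 to 0.40) and -0.08 (-0.36 to 0.20).

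Sensors of cytosolic viral RNA were represented by 3 helicases and the ubiquitin ligase Trim25, and 0 of the 4 passed with limma (1 at an unadjusted p under 0.05). Dhx58, the helicase LGP2 that modulates the other sensors, read 11.39, 11.46 and 11.55 in Gata3+/- and 11.97, 12.08 and 11.78 in Gata3-/- samples. Its genotypes did not overlap (difference 0.48, SE 0.10, limma adjusted p = 0.0623). Its other tested probe set overlapped, with a difference of 0.58 (adjusted p = 0.355). Ddx58, the helicase RIG-I, read 10.93, 11.29 and 11.16 against 11.25, 11.59 and 11.20, with overlap and a difference of 0.22 (SE 0.15, adjusted p = 0.449). Its other probe sets had differences of 0.00 and -0.32. Ifih1, the sensor of long double-stranded RNA, had a difference of -0.07 (95% interval -0.54 to 0.40). Trim25, which activates RIG-I, had a difference of -0.16 (95% interval -0.46 to 0.13).

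**Figure D2:**
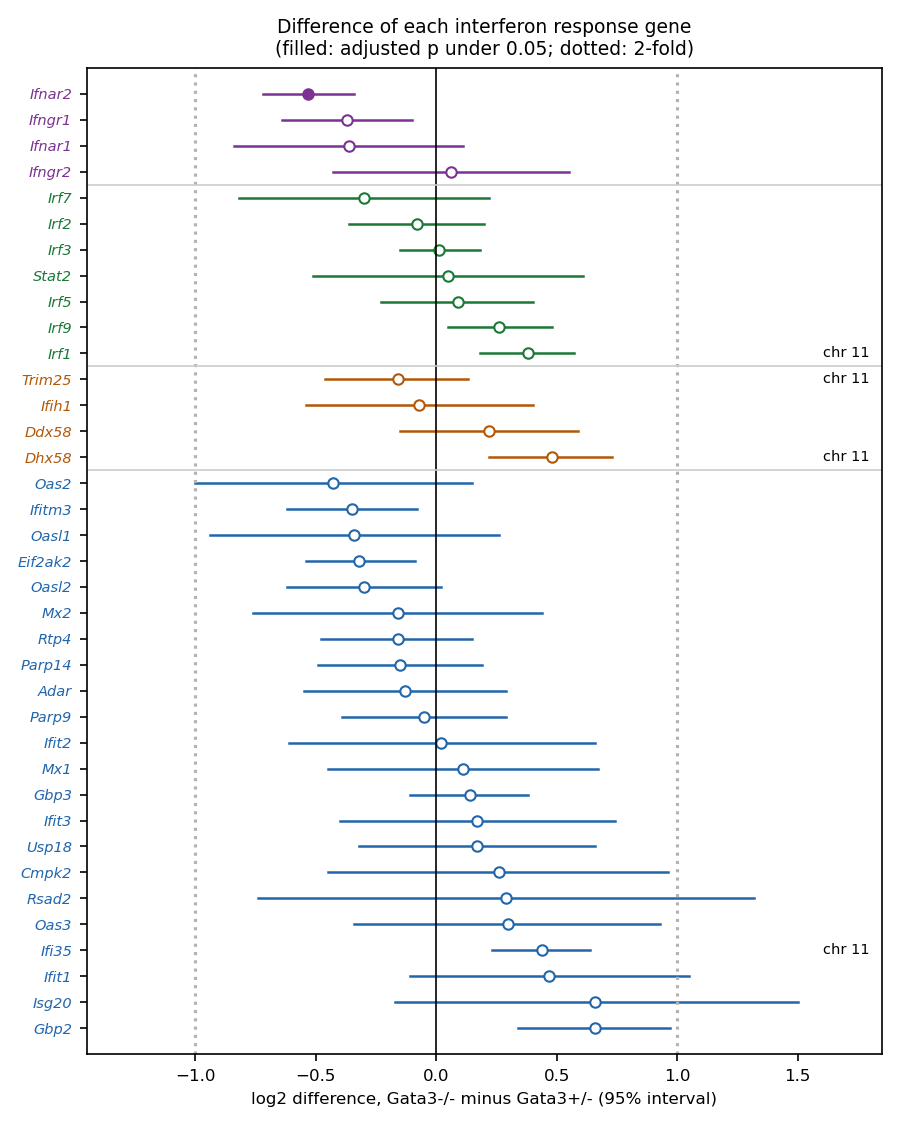
Log2 difference of each measured member, Gata3-/- minus Gata3+/- (x axis), with its 95% interval from limma as a line, ordered by role; a filled circle marks an adjusted p under 0.05 and dotted lines mark 2-fold. Ifnar2 at -0.53 is the only filled circle, and 3 of the 4 genes marked as lying on chromosome 11 are above 0.

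Among the 22 measured effectors 0 passed with limma (4 at an unadjusted p under 0.05), with 12 differences above 0 and 10 below. Gbp2, an interferon-induced GTPase that attacks the vacuoles of intracellular pathogens, read 11.35, 11.40 and 11.30 in Gata3+/- and 11.93, 12.27 and 11.83 in Gata3-/- samples. All Gata3-/- values were higher, by 1.58-fold on the mean (difference 0.66, SE 0.13, limma adjusted p = 0.0523), and its other probe set gave 0.59 (adjusted p = 0.0656). Its relative Gbp3 overlapped between the genotypes, with a difference of 0.14 (95% interval -0.11 to 0.38).

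Ifi35, a protein that binds other interferon-induced factors, read 14.15, 14.15 and 14.14 in Gata3+/- and 14.59, 14.70 and 14.46 in Gata3-/- samples. Here too the genotypes did not overlap, the difference was 0.44 (SE 0.08) and the limma adjusted p was 0.0504. Its other probe sets gave 0.45 and 0.40. Irf1, Dhx58, Ifi35 and Gbp2 passed the adjusted threshold under some of the alternative settings given in the closing section, and in each of those fits all had a positive difference.

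On the lower side the genotypes did not overlap for 3 effectors. Ifitm3, a membrane protein that blocks viral entry, read 14.73, 14.84 and 14.65 against 14.41, 14.54 and 14.22, without overlap (difference -0.35, SE 0.11, limma adjusted p = 0.131). Eif2ak2, the kinase PKR that stops translation when it binds double-stranded RNA, read 11.21, 11.43 and 11.29 against 10.95, 10.94 and 11.09, without overlap (difference -0.32, SE 0.09, adjusted p = 0.108). Its other probe sets had differences of -0.31 and -0.35. Oasl2, a ubiquitin-like member of the oligoadenylate synthetase family, read 12.03, 12.28 and 12.02 against 11.83, 11.99 and 11.61, also without overlap (difference -0.30, adjusted p = 0.242).

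The synthetase family was not uniform in sign. Oas2, which makes the oligoadenylate that activates RNase L, had a difference of -0.43 (SE 0.23, limma adjusted p = 0.336). Oasl1, a translational inhibitor of Irf7, had one of -0.34 (95% interval -0.94 to 0.26) and Oas3 one of 0.30 (-0.34 to 0.93). The GTPases Mx1 and Mx2, which trap viral nucleocapsids, had differences of 0.11 and -0.16.

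The remaining effectors had differences between -0.16 and 0.66, and none of them was separated by genotype. Isg20, an exonuclease, had a difference of 0.66 (95% interval -0.17 to 1.50) and Ifit1, which binds foreign RNA caps, one of 0.47 (-0.11 to 1.05). Differences were 0.29 for Rsad2, the antiviral enzyme viperin, 0.26 for its chromosomal neighbour Cmpk2, a nucleotide kinase, 0.17 for Usp18, which removes ISG15 from proteins and restrains IFNAR2, and 0.17 for Ifit3. Ifit2 was at 0.02 and Parp9 at -0.05, while the RNA editing enzyme Adar was at -0.13, Parp14 at -0.15 and the chaperone gene Rtp4 at -0.16. Isg15, the ubiquitin-like modifier, shares its probe set with Gm9706. That probe set read 13.75, 13.91 and 13.61 in Gata3+/- and 13.84, 14.29 and 13.64 in Gata3-/- samples, with overlap and a difference of 0.16 (adjusted p = 0.66).

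Variation between samples of 1 genotype was larger for these genes than for most others. The median SD of the 37 members was 0.18 in Gata3+/- and 0.23 in Gata3-/- samples, beside 0.11 and 0.12 over the 6478 tested genes whose mean level was at or above that of the dimmest member. Much of it lay in the arrays numbered 2. Of the 22 effectors, 18 were highest on array 2 in both genotypes (81.8%), beside 21.9% of all genes tested. Among the sensors this held for 3 of 4, among the signalling factors for 3 of 7 and among the receptors for 0 of 4. The median effector on array 2 lay 0.38 above the mean of the other Gata3+/- arrays and 0.48 above that of the other Gata3-/- arrays, whereas the medians over all genes were -0.02 and 0.02.

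Rsad2 had the largest SE of the members, 0.42, with values of 11.30, 12.08 and 11.28 in Gata3+/- and 11.56, 12.67 and 11.31 in Gata3-/- samples. Array 2 thus exceeded the mean of the others by 0.79 and 1.23, more than the genotypes differed, and the remaining 4 values lay close together. Its neighbour Cmpk2 read 10.51, 11.05 and 10.46 against 10.53, 11.45 and 10.81. Ifit3, with the ISRE cores printed above, read 12.62, 13.04 and 12.62 against 12.81, 13.37 and 12.61, and for Rsad2, Cmpk2 and Ifit3 each array 2 lay above all 4 other arrays. Oas3 was less clear, at 8.27, 8.93 and 8.79 against 9.0, 9.31 and 8.55.

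Isg20 read 10.75, 11.03 and 10.53 against 11.27, 12.14 and 10.89, and Ifit1 10.68, 10.87 and 10.92 against 11.18, 11.79 and 10.91. Their highest values were on Gata3-/- array 2, and for Ifit1 Gata3+/- array 2 was not the highest of its genotype. Without both arrays numbered 2 the difference of Isg20 was 0.44 and that of Ifit1 was 0.25, while Irf1 (0.40), Ifi35 (0.38), Dhx58 (0.41) and Gbp2 (0.56) moved less. Those of Rsad2, Cmpk2 and Ifit3 were 0.14, 0.18 and 0.09. The median over the 37 members was then -0.02, beside -0.03 over all genes, and 0 of them passed with limma (7 at an unadjusted p under 0.05). Of all 10302 genes 3 passed in that fit and 2037 had an unadjusted p under 0.05, so few calls are not particular to the members.

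Other readouts moved with the arrays numbered 2. Beside the low stromal sums given above, the summed intensity of 7 natural killer markers was 5831 on Gata3+/- array 2, against 2530 and 3654 on the others, and 23938 on Gata3-/- array 2, against 5053 and 9424. By summed intensity, array 2 was also the highest of each genotype for mast cell and basophil markers (882 and 1633) and for neutrophil markers (1301 and 2288). In these lists 4 of 6 and 4 of 7 markers were under the minimum on all arrays. Among the neutrophil markers Mpo was highest on array 2 of both genotypes (10.25 and 10.15). S100a8 and S100a9 were highest on array 2 in Gata3-/- samples but on array 3 in Gata3+/- samples (7.68 and 7.53, against 4.88 and 5.04 on array 2). The sum on array 2 was the lowest of each genotype for erythroid and megakaryocyte markers (39860 and 23247) and for conventional dendritic cell markers (18024 and 39391). Klf1, Gata1 and Epor of the erythroid list were instead highest on Gata3-/- array 2 (10.04, 9.37 and 7.93). Hbb-bh1, Hbb-y, Pf4, Itga2b and Ppbp were lowest there. Of the conventional dendritic cell list, Ccr7 and Zbtb46 were lowest on array 2 of both genotypes, with Ccr7 at 10.62 on Gata3+/- array 2 against 13.10 and 12.95. On that array H2-Ab1 was instead the highest of its genotype (11.88), and Flt3, Itgax, Cd74 and Ciita were not the lowest. Of the natural killer markers Ncr1, Eomes and Prf1 were under the minimum on all arrays, and Gzmb and Gzma were the bright ones. The macrophage and monocyte sum, over 13 of 13 markers that reached the minimum, was 114000 to 133000 in Gata3+/- and 83400 to 98500 in Gata3-/- samples. C1qb and Csf1r were the brightest of that list. In it 2 markers fell with limma, Fcgr1 (difference -0.70, adjusted p = 0.0431) and Ccr2 (-1.79, adjusted p = 0.0342). Cd68 and Mertk lay on the higher side, at 0.53 (limma adjusted p = 0.0541) and 0.16, and Lyz2 and C1qa were at -0.11 and -0.28. The part of any of these cell types in the effector levels was not tested. By promoter, 9 of 12 measured members with an ISRE core and 9 of 17 without one were highest on array 2 in both genotypes. Of all genes tested 21.9% were. All 4 receptors, of which 0 were, belong to the group without a core, so motif and role are mixed. Of the effectors without a core, Adar, Cmpk2, Ifit2, Isg20, Oasl1 and Oasl2 were highest there in both, and Ifi35 was not. Of those with one, Gbp2, Gbp3, Ifit3, Ifitm3, Oas3 and Rsad2 were, and Eif2ak2 and Ifit1 were not.

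**Figure D3:**
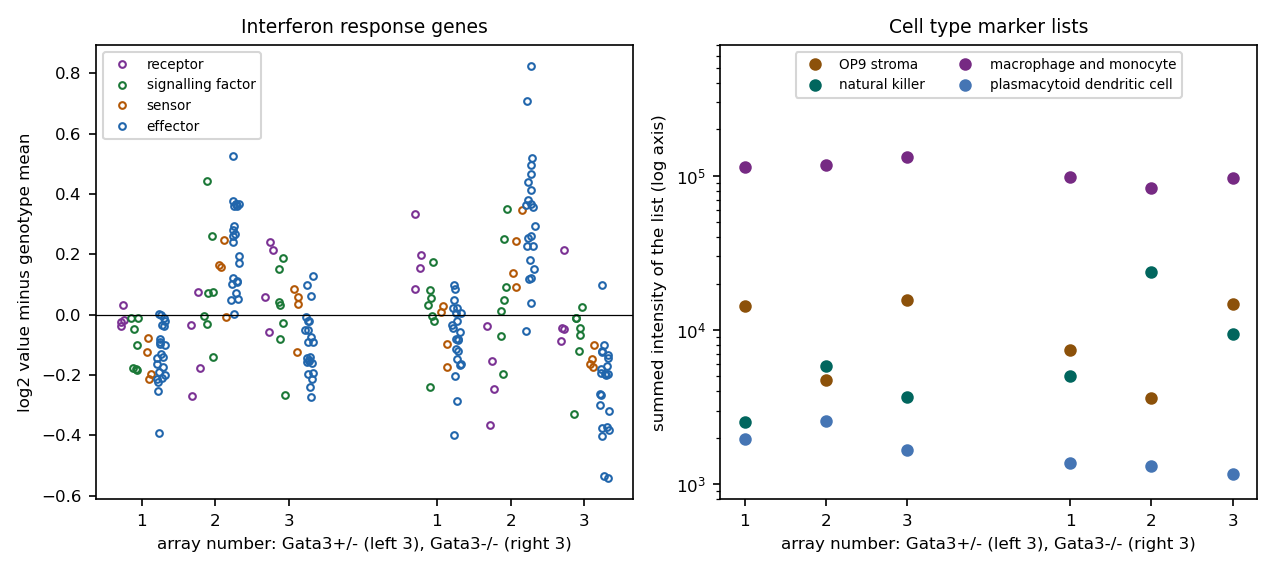
Left, log2 value minus the mean of its genotype (y axis) for each measured member on each array, coloured by role. Right, summed linear intensity of 4 marker lists on the same arrays, on a log axis. Of the 22 effectors, 18 lie highest on array 2 of both genotypes, where the stromal sums are lowest at 4770 and 3642.

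Of the 5 members that were higher without overlap, 3 lie on chromosome 11, where 3 of the 20 members with a difference above 0 lie. These are Irf1, Dhx58 and Ifi35, and Trim25, with a difference below 0, lies there too. On chromosome 11, 782 of 886 tested genes (88.3%) had a difference above 0 and the median was 0.33. On that chromosome 57.2% of tested genes were higher in Gata3-/- samples without overlap, against 13.1% of the tested genes elsewhere. Irf1, Dhx58 and Ifi35, at 0.38, 0.48 and 0.44, stood at the 59.9th, 73.8th and 68.5th percentile of their own chromosome, so their differences were of the size found for its other genes. Trim25, at -0.16, stood at the 5.98th percentile. The 24 tested genes around each of these 4 had median differences of 0.27, 0.41, 0.37 and 0.24 for Irf1, Dhx58, Ifi35 and Trim25.

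Irf9 lies on chromosome 14, and its 24 tested neighbours had a median difference of 0.40, above its own 0.26. Gbp2, on chromosome 3, had no such surroundings, since its neighbours had a median of -0.01, and those of Ifnar2 had a median of -0.03. Of the 33 measured members away from chromosome 11, 2 were higher without overlap, Irf9 and Gbp2 (6.06%), and 5 were lower (15.2%), where the shares of all tested genes off that chromosome were 13.1% and 18.2%. The part of the chromosome-wide difference in the values of Irf1, Dhx58 and Ifi35 was not tested.

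**Figure D4:**
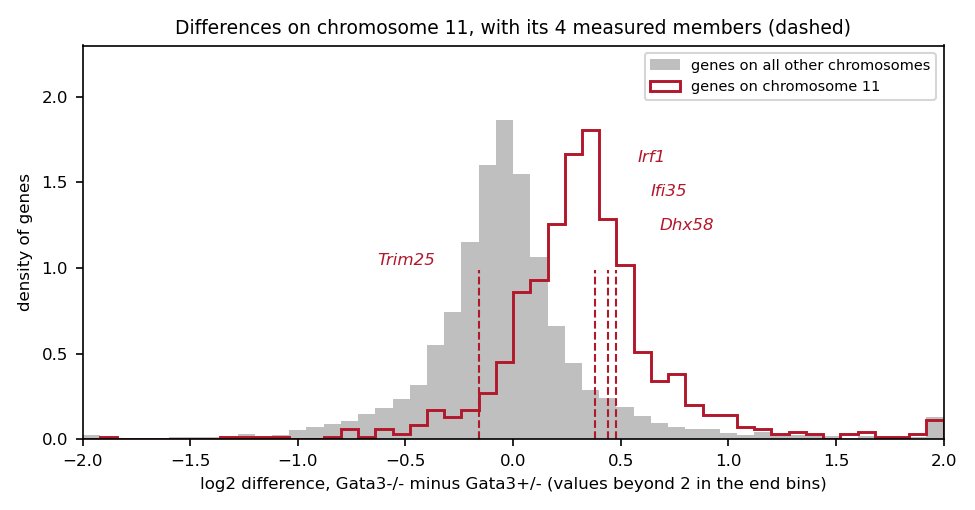
Distribution of log2 differences, Gata3-/- minus Gata3+/- (x axis), for the 886 tested genes of chromosome 11 (red outline) and for the 9416 other tested genes (grey), each as a density; dashed lines mark the 4 members on chromosome 11. The outline is centred near 0.33, with Irf1, Ifi35 and Dhx58 at 0.38 to 0.48 inside it and Trim25 at -0.16 on its lower side.

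Other genes of the pathway were read from 4 lists. None of the 10 interferon genes with a probe set of their own reached the minimum on any array, with Ifnb1 at 2.31 ± 0.01 and 2.35 ± 0.08 and Ifng at 2.36 ± 0.02 and 2.35 ± 0.01. Of 13 measured genes of induction and sensing, Tlr7, the endosomal receptor for single-stranded RNA, fell from 10.78 ± 0.11 to 10.02 ± 0.12 (difference -0.76, SE 0.10, limma adjusted p = 0.0322), and 12 did not pass. Of 12 measured genes of receptor signalling and its inhibitors, 2 rose, 1 fell and 9 did not pass. The risen genes were the Janus kinases of the receptors. Jak2, which serves the interferon gamma receptor, read 10.37, 10.44 and 10.57 in Gata3+/- and 11.47, 11.13 and 11.18 in Gata3-/- samples (difference 0.80, SE 0.12, limma adjusted p = 0.0359).

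Tyk2, the kinase bound to IFNAR1, rose from 9.17 ± 0.16 to 9.84 ± 0.15 (difference 0.67, SE 0.12, limma adjusted p = 0.0477). Both kinases were thus higher on every Gata3-/- array, and Jak1, the partner kinase, had a difference of 0.26 (adjusted p = 0.444). Irf8, an interferon-induced factor of dendritic cells and monocytes, fell from 12.51 ± 0.10 to 11.84 ± 0.15 (difference -0.67, SE 0.11, adjusted p = 0.0383). Irf4, a factor of dendritic and lymphoid cells, had the largest difference of this list at 2.25, but its Gata3+/- values spread from 3.84 to 6.45 and it did not pass (SE 0.70, adjusted p = 0.129). Socs1, the feedback inhibitor of the receptors, reached the minimum on 1 of 6 arrays and was not tested.

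Among 48 other measured interferon-induced genes 2 rose, 0 fell and 46 did not pass, with a median difference of 0.16. Cd274, the checkpoint ligand PD-L1, read 8.47, 8.23 and 8.81 in Gata3+/- and 10.10, 9.66 and 9.98 in Gata3-/- samples (difference 1.41, SE 0.19, limma adjusted p = 0.0338). Gbp7, a GTPase of the same family and chromosome as Gbp2, read 12.62, 12.73 and 12.75 against 13.09, 13.27 and 13.10 (difference 0.45, SE 0.08, adjusted p = 0.0478). Among these 48 genes, 34 (70.8%) were highest on array 2 in both genotypes. Its 9 members on chromosome 11, among them the GTPases Irgm1, Irgm2 and Igtp, had a median of 0.34 and the 39 others one of 0.09. Over all 4 lists 6 of 73 tested genes were called (8.22%), 4 higher and 2 lower, against 5.27% of all genes. None of the 6 was called when any 1 array was left out, with limma adjusted p between 0.0664 and 0.146 over those fits, where 0 to 4 of all genes were called. None passed without both arrays numbered 2 (limma adjusted p 0.0832 to 0.202), where 3 of all genes did. Without the filter on dim probe sets none passed either (0.0569 to 0.107), and 98 of all genes did.

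Markers of conventional dendritic cells were higher in Gata3-/- samples by summed intensity, though only 1 of 9 was called. Their summed intensity was 18000 to 25200 in Gata3+/- and 39400 to 55500 in Gata3-/- samples, over 9 markers of which 7 reached the minimum and Xcr1 and Cd209a did not on any array. Zbtb46, a defining factor of these cells, rose (difference 1.89, limma adjusted p = 0.0485), and Ccr7 had a difference of 2.42 (adjusted p = 0.108). The others measured were uncalled, with differences of 1.32 for Flt3, 0.53 for Itgax and 0.46 for Cd74. H2-Ab1 and Ciita were at 0.20 and 0.05. Ccr7 and Cd74 were the brightest of the list. The part of conventional dendritic cells in the values of Cd274, Irf8, Irf4, Jak2 and the other pathway genes was not tested.

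**Figure D5:**
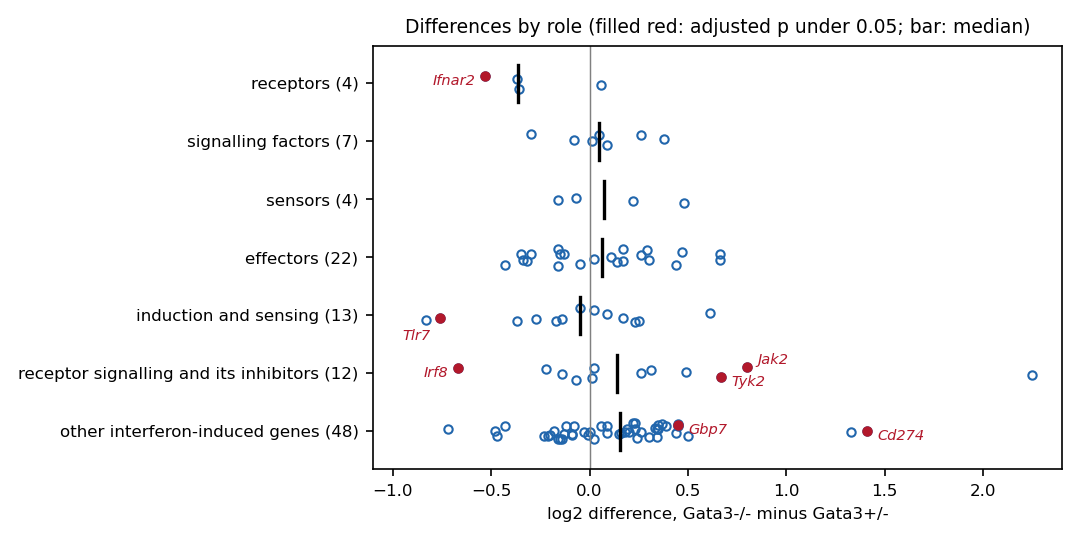
Log2 difference, Gata3-/- minus Gata3+/- (x axis), of every measured member by role and of 3 further lists of the pathway, with the number of genes in brackets, a bar at the median and filled red points at an adjusted p under 0.05. Of the members only Ifnar2 is filled; Tlr7 and Irf8 are filled below 0, and Jak2, Tyk2, Cd274 and Gbp7 above 0.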

How the data were processed

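Values were the intensities deposited by the authors for 45101 probe sets on 6 Affymetrix arrays, made with GC-RMA per the labels, on a linear scale from 2.28 to 77335. The submitters' processing notes name GCOS, and no version or setting is given there. The log2 of each intensity was taken here. Probe sets entered the tests where they had a log2 value of 4 or more on at least 3 arrays, 20102 in all, without the 64 controls. Gene names came from the platform annotation, matched by gene identifier to RefSeq (GRCm38.p6). Each gene was represented by its own probe set of highest mean. The 2 genotypes were compared by limma (3.58.1, under R 4.3.3) through lmFit and eBayes, two-sided. Benjamini-Hochberg adjustment covered every tested probe set, the threshold was 0.05, and the script was first tested on simulated data. The array number limits the precision. Members, lists, motifs and alternatives were chosen with earlier results of these data known. Every member is named, with values for those that were called, did not overlap or had an unadjusted p under 0.05; other members and list genes given array by array were chosen after their values were seen. Motifs were matched by exact letters. Plots were drawn with matplotlib version 3.10.9.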

Additional observations from a re-analysis of the deposited data

How the results depend on the processing

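Of 10302 genes 543 were called with limma, Ifnar2 among them as the only interferon response gene. Without a filter on dim probe sets 98 genes and 0 members were called (9 members at an unadjusted p under 0.05), and with a 2-fold minimum 159 and 0. Under eBayes with trend and robust set 824 genes and 5 members were called, and under array weights 1224 and 5, in both cases Ifnar2, Irf1, Ifi35, Dhx58 and Gbp2. With the filter at a log2 value of 6 members called were 3 (Ifnar2, Ifi35 and Gbp2), and with the mean of a gene's probe sets 3 (Ifnar2, Irf1 and Gbp2). Without chromosomes 6, 11, 14 and Y 229 genes were called and Ifnar2 stayed the 1 member called of 30. When each array was omitted in turn there were 0 to 4 genes and 0 to 0 members (8 to 12 members at an unadjusted p under 0.05), and leaving out both arrays numbered 2 left 3 genes and 0 members. With the replicate block 298 genes and 0 members were called (14 members at an unadjusted p under 0.05, Ifnar2 at an adjusted p of 0.0622). Of the 6 called pathway genes, Jak2, Tyk2, Irf8 and Gbp7 lost their call under this block (adjusted p 0.0637 to 0.0852) and Tlr7 and Cd274 did not (both 0.0431). Deviations of same-numbered arrays correlated by 0.005, 0.695 and 0.429 for numbers 1, 2 and 3. The labels do not say whether same-numbered arrays were made together, so the main fit did not pair them. Spread shared by arrays of the same number, as on the arrays numbered 2, therefore stays in the SE of that fit. The median difference of the members stayed between -0.07 and 0.05 and no called member changed sign under the alternatives run. Ifnar1, Irf3, Irf5, Ddx58 and Trim25 had probe sets that differed in sign, all uncalled. With 3 arrays a genotype, the 95% intervals of the members reached 0.16 to 1.03 to either side, so smaller differences were not detectable. These intervals are not adjusted for the number of tests. Some larger differences were therefore not called either, such as that of Gbp2 at 0.66 (95% interval 0.34 to 0.97).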

Other observations

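Some interferon-induced genes could be read only through probe sets shared with relatives. The probe set of the GTPases Tgtp1 and Tgtp2 read 9.79, 10.63 and 9.44 in Gata3+/- and 9.88, 11.80 and 10.12 in Gata3-/- samples, highest on array 2 of both genotypes, with a difference of 0.64 (limma adjusted p = 0.57). The probe set of Ifi205 and Ifi211, DNA-binding proteins of the interferon-inducible Ifi200 family, read 14.35, 14.42 and 14.34 against 14.56, 14.65 and 14.58, without overlap (difference 0.23, SE 0.07, limma adjusted p = 0.121). The probe sets that cover several interferon alpha genes at once were all under the minimum.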
